A study of Mus musculus with 4 samples.

Results

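Collagens, laminins and the integrins that bind them form the matrix around cells and its receptors, and their transcripts were followed here across neurons, satellite glia and endothelial cells of the mouse vagal ganglia. The genes were chosen by symbol alone: Col, digits, a and digits; Lama, Lamb or Lamc with a digit; Itga or Itgb with a digit or one of the letters v, e, l, m, x and d, without symbols starting Itgb1bp. This gave 77 of the 17289 genes measured, namely 41 collagens, 10 laminins and 26 other matches. Among those 26, Itgb3bp encodes a centromere protein and Itgbl1 a secreted integrin-like protein, so 24 rows were integrins; Itgam filled 2 of them.

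The study profiled single cells of the jugular and nodose ganglia, the sensory ganglia of the vagus nerve, from mice aged 5 weeks. The 4 droplet libraries held 1825 cells. Libraries unsorted 1 and unsorted 2 were whole cell suspensions from C57BL6 wild-type mice. Libraries sorted 1 and sorted 2 held cells sorted by fluorescence from Vglut2Cre-Tomato mice, a cross of Slc17a6tm2(cre)Lowl with mice that carry Gt(ROSA)26Sortm14(CAG-tdTomato)Hze on the B6.Cg background, in which Cre made from the gene of the vesicular glutamate transporter Vglut2 turns on the red reporter tdTomato. The labels do not say how many mice went into a library or whether libraries came from separate mice, so p-values measure only the spread between libraries, which may be technical. Genotype and sorting went together and cannot be told apart.

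Collagens assemble as triple helices into fibrils (types I, III, V) or into the sheet of the basement membrane (types IV, XV, XVIII). Laminins are trimers of an alpha, a beta and a gamma chain that nucleate that sheet. Integrins are pairs of an alpha and a beta chain that tie cells to these proteins: Itga3, Itga6 and Itga7 give laminin receptors, Itgav pairs with several beta chains that read the RGD motif, and Itgb1 is the partner shared by most alpha chains. In sensory ganglia each neuron is wrapped by satellite glia, with a basement membrane outside that sheath and another around the vessels.

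The deposited clusters gave 1459 nodose neurons in 18 types, 245 jugular neurons in 6 types, 51 satellite glia, 51 endothelial cells and 19 sympathetic neurons. All 51 endothelial cells, and 47 of the satellite glia (20 and 27), came from the unsorted libraries; the other 4 glia were in sorted 1. Libraries held 16147719 to 30778125 unique molecular identifiers (UMIs, 1 per captured transcript), and the median cell had 41377 in nodose neurons, 37708 in jugular neurons, 9937 in glia and 9677 in endothelial cells. The summed markers fitted the names: 7 glial markers reached 847 to 1061 UMIs per 10000 in glia, 7 endothelial markers 84.5 to 94.2 in endothelial cells, and 6 neuronal markers 90.4 to 129.9 in neurons against 2.05 to 7.87 in the other classes. Endothelial profiles also carried 10.0 to 10.9 of 6 mural cell markers, and glial profiles 18.9 to 23.1 of 6 markers of myelinating Schwann cells; the part of either in the levels below was not tested. In nodose neurons the 7 glial markers summed to between 4.55 and 27.2 by library. Levels below are mean UMIs per 10000 of the cell in a class of a library, called a profile, and the 12 profiles with at least 10 cells entered the fit. The error of a profile covers counting only, and 1 barcode was shared between libraries.

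In neurons few matrix and adhesion transcripts reached a level of 1, and more were highest in satellite glia than in any other class. By class mean, 34 members were highest in glia, 18 in endothelial cells, 19 in nodose and 6 in jugular neurons. A level of at least 1 UMI per 10000 was reached by 10 members in glia and 7 in endothelium, but by 1 in each kind of neuron, and that was Itgb1. These counts were not set against the same counts over all genes. Some class means rest on few UMIs, such as those of Col4a5 with 4 in glia and 3 in endothelial cells. Of the 77 members, 47 passed the filter of more than 0.1 in at least 2 profiles. The other 30 did not exceed 0.197 in any profile and were not tested; they included all 4 collagen-binding alpha chains (Itga1, Itga2, Itga10, Itga11) and all 4 leukocyte integrins listed in the table.

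**Figure D1:**
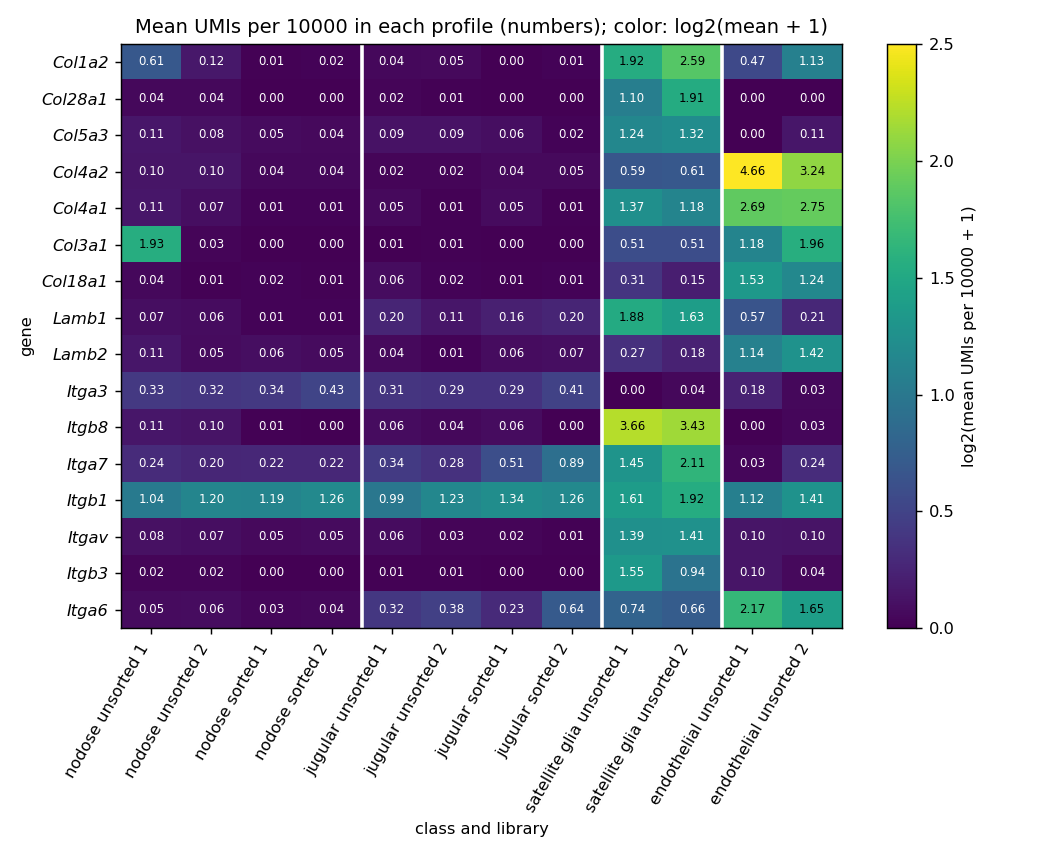
Mean UMIs per 10000 (number in each cell; color, log2 of the mean plus 1) of 16 genes in the 12 profiles of class and library. The genes are those called in a comparison or reaching 1 in a class, plus Itga3; glia and endothelium each have 2 profiles, and the left blocks are the neurons. Itgb8 stands out in the glial columns (3.66 and 3.43), Col4a2 in the endothelial ones (4.66 and 3.24), and Itgb1 is near 1 or above in nearly every column.

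Satellite glia against neurons was the first comparison, fitted with limma on log2(level + 1) with the library as a block. A gene was called at a Benjamini-Hochberg adjusted p under 0.05 and a log2 difference of at least 1. Glia were higher in 9 of the 47 members tested and lower in 0; over all 10997 genes, 2.86% were called higher and 4.35% lower. The 9 were the integrin chains Itgb8, Itgav, Itgb3 and Itga7, the collagens Col1a2, Col28a1, Col4a1 and Col5a3, and the laminin chain Lamb1. The median log2 difference was 0.48 over the members tested and -0.07 over all genes. Above 0 lay 35 of 47 members and 3903 of 10997 genes. Only 13 members met the filter in neuronal profiles alone, so most of the 47 needed a glial or endothelial profile to enter. For such members the direction was partly set by the filter, here and for the endothelial cells. Since the scale adds 1 to each level, a gene below 1 in every class could not be called. edgeR's quasi-likelihood test on the UMIs read back from the values, which has no such limit, called 34 members higher and 1 lower, against 18.5% and 20.5% of all genes. The clusters were drawn by the authors from these same transcripts, so here and for the endothelial cells the p-values are no independent test. In limma's fit the classes shared the residual spread of a gene, and most profiles were neuronal. A standard error can therefore be smaller than the glial or the endothelial profiles alone would give. The p-values thus do not show how evenly the glial or endothelial libraries carried a difference.

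Among the integrins, Itgb8 had the widest difference between glia and neurons on the log2(level + 1) scale; by edgeR it was 6.15, and that of Itgb3 was 6.69. Itgb8, a beta chain that pairs with Itgav and is known for releasing active TGF-beta from its latent complex, was at 3.66 and 3.43 in the glia of unsorted 1 and unsorted 2. In nodose neurons it was at 0.108, 0.0989, 0.00849 and 0 (unsorted 1, unsorted 2, sorted 1, sorted 2), in jugular neurons at 0.0582, 0.0382, 0.0627 and 0, and in endothelial cells at 0 and 0.0304. The glial profiles thus lay far above all 10 others, with a log2 difference from neurons of 2.08 (SE 0.05, adjusted p = 3.85e-09). UMIs of Itgb8 were seen in 94.1% of 51 glial cells (exact 95% interval 83.8 to 98.8%) and in 13.7% of 1459 nodose neurons (12.0 to 15.6%), although a glial cell had fewer UMIs; these intervals cover the sampling of cells only, not the spread between libraries. Thinned to 10000 UMIs per cell, the shares were 91.3% of the 23 glia deep enough and 5.00% of 1441 nodose neurons. In nodose neurons the low Itgb8 level followed the libraries as the glial gene Apoe did, which was at 20.2, 18.3, 1.94 and 0.683 in the same 4 profiles. In jugular neurons, where Apoe was at 10.5, 6.49, 1.66 and 0.221, Itgb8 was highest in sorted 1. The part of glial RNA in the neuronal Itgb8 level was not tested.

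Itgav, the alpha chain that pairs with Itgb3, Itgb5 and Itgb8, was at 1.39 and 1.41 in glia, at most 0.0800 in any neuronal profile, and at 0.10 and 0.0958 in endothelium. The difference from neurons was 1.18 on the log2 scale (SE 0.04, adjusted p = 1.01e-08). Itgb3, another partner of Itgav, was at 1.55 and 0.936 in glia and at most 0.0238 in neurons, a log2 difference of 1.13 (SE 0.07, adjusted p = 8.17e-07). Both glial profiles exceeded every other profile for each of these chains. Within single glial cells, Itgav was detected in 38 of 51, Itgb3 in 31, and Itgb8 in 48. Itgav and Itgb8 were found together in 35 cells, and each of the 31 cells with Itgb3 also had Itgb8. With Itgb8 in 48 of 51 cells, most cells with another chain would hold it anyway, so these counts do not show pairing. Itga7, a laminin receptor chain, was at 1.45 and 2.11 in glia against 0.203 to 0.236 in nodose and 0.279 to 0.887 in jugular neurons. It was the called member with the highest level in neurons, with a log2 difference of 1.13 (SE 0.12, adjusted p = 3.11e-05). Without unsorted 2 this difference was 0.93, and Itga7 was no longer called; the same held for Itgb3, at 0.93, without unsorted 1.

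Col1a2, a chain of fibrillar type I collagen, was at 1.92 and 2.59 in glia. It was at 0.608, 0.119, 0.0125 and 0.0160 in nodose neurons, at most 0.0482 in jugular neurons, and at 0.466 and 1.13 in endothelium. The glia lay above all other profiles, by 1.45 on the log2 scale against neurons (SE 0.18, adjusted p = 7.42e-05). Its usual partner Col1a1 was low in the same glia, at 0.231 and 0.0910. It was not called by limma, but edgeR called it higher in glia (2.40, adjusted p = 0.0261). Col1a1 had only 7 UMIs in glia, and the nodose profile of unsorted 1 lay above both glial profiles. Col28a1, a beaded-filament collagen described around peripheral glia, was at 1.10 and 1.91 in glia, at most 0.0410 in neurons, and without a UMI in 51 endothelial cells, which allows a level of up to 0.0597. The difference from neurons was 1.26 (SE 0.09, adjusted p = 1.62e-06). Col5a3, a type V chain of fibrils, was at 1.24 and 1.32 in glia and at most 0.107 in neurons, a log2 difference of 1.06 (SE 0.05, adjusted p = 6.17e-08). Lamb1, the beta chain of many laminins, was at 1.88 and 1.63 in glia, 0.0141 to 0.0692 in nodose neurons and 0.108 to 0.200 in jugular neurons. For Lamb1 the difference was 1.31 (SE 0.07, adjusted p = 2.65e-07).

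The 4 glial cells of sorted 1, which were too few for the fit, gave levels of 2.68 for Itgb8, 1.17 for Col28a1, 1.04 for Itgav, 1.04 for Col5a3, 1.08 for Col4a1, 1.03 for Itga7 and 1.0 for Col1a2. Lamb1 at 0.573 and Itgb3 at 0.390 were lower there than in the unsorted glia, and Itgb8 was again the highest of the 9. Other members were raised in glia but stayed under the fold required in limma's fit. Lama4, an alpha chain of basement membrane laminins, was at 1.07 and 0.612 (log2 difference 0.77, SE 0.11, adjusted p = 2.32e-04). Its partner Lamc1 was at 0.993 and 0.750 (0.78, SE 0.05, adjusted p = 7.81e-07). By role, limma's calls were 2 of 9 fibrillar collagens tested, 1 of 5 basement membrane collagens, 1 of 6 beaded-filament and short-chain collagens, 0 of 4 fibril-associated and 0 of 2 transmembrane collagens, 1 of 9 laminin chains and 4 of 11 integrin chains.

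The 250 bases upstream of the annotated start are shown for the glial members where this stretch held no annotated exon, namely Col28a1, Itgav and Col5a3. They come from RefSeq on GRCm38.p6, reading towards the gene. The windows are chr6:8192618-8192867 on the minus strand for Col28a1, chr2:83724147-83724396 on the plus strand for Itgav and chr9:20815068-20815317 on the minus strand for Col5a3. Capitals mark matches, on either strand, to the SOX core ACAAAG and its second form ACAATG, the ETS core CCGGAA, the GC box GGGCGG, the CCAAT box and the TATA box TATAAA.
Col28a1: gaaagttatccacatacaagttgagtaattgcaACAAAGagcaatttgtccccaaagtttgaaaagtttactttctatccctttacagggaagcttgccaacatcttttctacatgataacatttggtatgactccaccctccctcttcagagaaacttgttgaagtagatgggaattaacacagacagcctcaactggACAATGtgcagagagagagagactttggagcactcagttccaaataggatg
Itgav: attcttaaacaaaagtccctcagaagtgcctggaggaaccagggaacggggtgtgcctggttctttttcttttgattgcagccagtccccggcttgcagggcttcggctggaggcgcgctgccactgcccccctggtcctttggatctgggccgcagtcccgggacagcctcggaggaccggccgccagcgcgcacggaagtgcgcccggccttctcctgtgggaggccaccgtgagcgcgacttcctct
Col5a3: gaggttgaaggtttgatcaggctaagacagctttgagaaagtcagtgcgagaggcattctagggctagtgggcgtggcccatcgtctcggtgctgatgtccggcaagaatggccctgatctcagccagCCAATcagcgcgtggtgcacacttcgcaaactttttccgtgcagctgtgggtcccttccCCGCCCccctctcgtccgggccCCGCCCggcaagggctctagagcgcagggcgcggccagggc
Col28a1 held both SOX forms, ACAAAG starting 217 and ACAATG starting 51 bases before the start. Itgav held none of the 6 motifs. Col5a3 held a CCAAT box and 2 GC boxes. Of all 32851 windows of this length, 16.5% held ACAAAG, 10.7% ACAATG, 33.8% CCAAT and 32.7% the GC box. Over the 61 windows listed for 56 members, 6 held ACAAAG, 16 CCAAT and 30 the GC box. These matches describe letters only.

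Endothelial cells against neurons was fitted in the same way. By limma, endothelial cells were higher in 5 of the 47 members and lower in 0, with 3.88% of all genes called higher and 5.2% lower. The 5 were the basement membrane collagens Col4a1, Col4a2 and Col18a1, the laminin beta chain Lamb2 and the laminin receptor chain Itga6. By limma, basement membrane collagens were called in 3 of 5 tested and fibrillar collagens in 0 of 9. Without 6 nodose cells described below, limma also called the fibrillar Col3a1. The median log2 difference over the members tested was 0.09, against -0.07 over all genes. edgeR called 25 members higher and 1 lower, with 22.8% and 26.1% of all genes.

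Col4a1 and Col4a2 encode the chains of the common type IV collagen and lie head to head. Their annotated starts overlap by 22 bases at chr8:11312805-11312826 (mm10, GENCODE starts; RefSeq sequence of GRCm38.p6), so that stretch belongs to the start of both transcripts. It is shown because the pair rose together in the endothelium, and it is given on the plus strand. Motifs were not marked in it, although it holds the letters of the GC box, GGGCGG.
Col4a1 and Col4a2: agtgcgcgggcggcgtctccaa
Col4a2 was at 4.66 and 3.24 in endothelial cells, 0.594 and 0.606 in glia and at most 0.0996 in neurons. Col4a1 was at 2.69 and 2.75 in endothelial cells, 1.37 and 1.18 in glia and at most 0.113 in neurons. For both genes endothelium was highest, glia intermediate and neurons lowest, with no overlap between these 3. Against neurons the endothelial log2 difference was 2.21 for Col4a2 (SE 0.09, adjusted p = 2.45e-08) and 1.81 for Col4a1 (SE 0.05, adjusted p = 3.82e-09). Of 51 endothelial cells, 47 had a Col4a2 UMI, 42 a Col4a1 UMI and 40 both. In glia the corresponding counts were 23, 37 and 22 of 51. The other type IV chains of the same head-to-head layout, Col4a3 with Col4a4 and Col4a5 with Col4a6, start 71 and 1308 bases apart; of these 4 only Col4a5 entered the test. Col4a5 was not called by limma. By edgeR it was called higher than in neurons in both glia (adjusted p = 0.00333) and endothelium (adjusted p = 0.00864). These calls rest on few UMIs, in all 4 in glia and 3 in endothelial cells, with 10 in nodose and 0 in jugular neurons.

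Col18a1, which gives the vessel collagen from which endostatin is cut, was at 1.53 and 1.24 in endothelium, 0.307 and 0.155 in glia and at most 0.0561 in neurons (log2 difference 1.21, SE 0.05, adjusted p = 1.62e-08). Lamb2, a laminin beta chain, was at 1.14 and 1.42 against at most 0.111 in neurons (1.11, SE 0.06, adjusted p = 2.14e-07), and at 0.99 without unsorted 2 it was no longer called. Itga6 was at 2.17 and 1.65 in endothelium, 0.738 and 0.660 in glia, 0.227 to 0.638 in jugular and 0.0300 to 0.0623 in nodose neurons. Its endothelial profiles stood above all others, with a log2 difference of 1.28 from neurons (SE 0.09, adjusted p = 1.22e-06). Lower down, 10 members had endothelial UMIs and none in glia, where 3 UMIs would be a level of 0.0575. Of the 4 with most endothelial UMIs, Lama5, the alpha chain of mature vessel laminin, was at 0.515 and 0.482, Itga5, the fibronectin receptor chain, at 0.447 and 0.433, Col13a1, a transmembrane collagen, at 0.766 and 0.346, and Col6a1 at 0.173 and 0.527. On limma's log2(level + 1) scale these 4 could not reach the fold required. By edgeR each of them was called higher in endothelium than in neurons. They were picked for their endothelial UMIs, so these calls add no separate support.

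**Figure D2:**
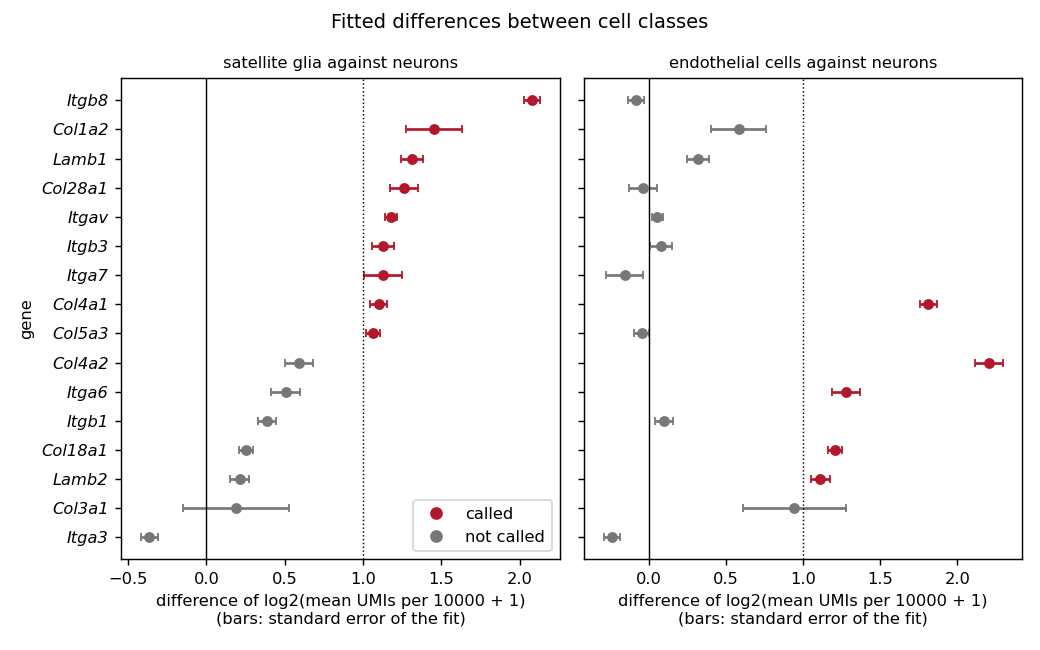
Fitted differences of log2(mean UMIs per 10000 + 1) for the same 16 genes, satellite glia minus neurons on the left and endothelial cells minus neurons on the right; bars are standard errors, red points were called, and the dotted line marks the fold required. Col4a1 is red in both panels, Itgb8 only on the left (2.08) and Col4a2 only on the right (2.21).

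Set directly against endothelial cells, satellite glia were by limma higher in 6 of 47 members and lower in 1, where 2.63% and 2.99% of all genes were called. Itgb8 (2.16), Col28a1 (1.30), Itga7 (1.29), Itgav (1.13), Col5a3 (1.11) and Itgb3 (1.05) were higher in glia on the log2 scale, and Col4a2 was lower by -1.61 (SE 0.10, adjusted p = 9.29e-07). Itgb3 was at 0.89 without unsorted 1 and was then not called. Lamb1, at 0.996, was just under the fold required, and Col18a1 (-0.95), Lamb2 (-0.90), Itga6 (-0.77) and Col4a1 (-0.71) were lower in glia by less than the fold required. Between the glial and the endothelial profiles of Lamc1 there was no such separation, with a difference of 0.09 (SE 0.06, adjusted p = 0.239). By edgeR, 17 members were higher and 11 lower, against 11.2% and 10.7% of all genes.

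Mural cell transcripts ran through the endothelial cluster. All 51 cells had UMIs of Cldn5, a tight junction gene of endothelium, and 30 of them also had a UMI of at least 1 of 5 mural markers (Pdgfrb, Notch3, Kcnj8, Acta2, Myh11). Col3a1, a fibrillar collagen, was at 2.83 in those 30 cells and 0.0890 in the other 21; Col1a2 was at 1.5 and 0.0716, and Col6a1 at 0.695 and 0. Rgs5, a mural gene not used for the split, was at 13.0 and 1.05. The called endothelial members showed smaller gaps: Col4a2 was at 3.81 and 3.57, Col4a1 at 2.51 and 3.04, Itga6 at 1.67 and 2.04, Lamb2 at 1.34 and 1.31, and Col18a1 at 1.19 and 1.54. The split is descriptive, since whether cells with these UMIs held a second cell was not tested.

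**Figure D3:**
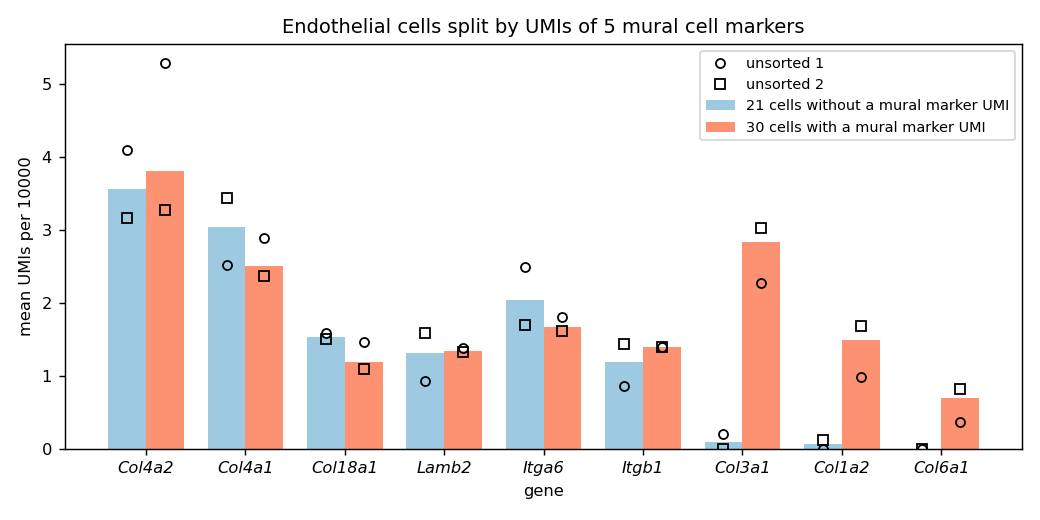
Mean UMIs per 10000 in the 21 endothelial cells without and the 30 with a UMI of 5 mural markers; bars pool the cells and symbols give each unsorted library. Col3a1, Col1a2 and Col6a1 are high only in the bars with mural UMIs (2.83, 1.5 and 0.695), and the bars of Col4a2, Col4a1, Lamb2, Itga6 and Col18a1 lie between 1.19 and 3.81 in both kinds of cell.

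Neurons carried few of these transcripts at a level, and Itgb1 was the exception. Itgb1 was at 1.04, 1.20, 1.19 and 1.26 in nodose and 0.992, 1.23, 1.34 and 1.26 in jugular neurons (unsorted 1, unsorted 2, sorted 1, sorted 2), 1.61 and 1.92 in glia, and 1.12 and 1.41 in endothelium. Neurons and endothelium overlapped; glia lay above, by 0.39 against neurons on the log2 scale (SE 0.06, adjusted p = 2.62e-04), under the fold required. The 19 sympathetic neurons of the unsorted libraries had an Itgb1 level of 2.58. Among the 24 neuron types the level ran from 0.573 in NG12 to 1.89 in JG5.

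Itga3, a laminin receptor chain, was the 1 member that edgeR called lower in both glia and endothelium than in neurons. Col24a1 and Col6a5, which were lower in level than Itga3 in neurons, had no UMI in glia or endothelium and were not called there by either tool. It was at 0.329, 0.315, 0.337 and 0.427 in nodose and 0.306, 0.285, 0.289 and 0.408 in jugular neurons, at 0 and 0.0350 in glia and at 0.181 and 0.0348 in endothelium. No neuronal profile overlapped a glial or endothelial one. The log2 difference was -0.36 for glia (SE 0.05, adjusted p = 2.14e-04) and -0.24 for endothelium (SE 0.05, adjusted p = 0.00234), below the fold on this scale; by edgeR it was -3.50 (adjusted p = 0.00316) and -1.41 (adjusted p = 0.0344). At an equal depth of 10000 UMIs per cell, 27.5% of 1441 nodose neurons had an Itga3 UMI, against 70.1% of 1459 before thinning; in glia, 1 of 51 cells had one. The 3 laminin receptor chains thus led in different classes: Itga3 in neurons, Itga6 in endothelium and Itga7 in glia.

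Nodose against jugular neurons gave 0 of 47 members called by limma, where 1.02% of all genes were called; 10 of 47 had an unadjusted p under 0.05, as had 32.2% of all genes. Because Itgb1 alone reached 1 in neurons, no other member could meet the fold required. edgeR called 15 higher and 4 lower in nodose neurons, with 9.98% and 6.6% of all genes. Itga6 was lower in nodose, at 0.0300 to 0.0623 against 0.227 to 0.638 in jugular neurons, with no overlap (edgeR log2 difference -2.82, adjusted p = 3.62e-10). Lamb1 was likewise lower, 0.0141 to 0.0692 against 0.108 to 0.200 (-2.35, adjusted p = 1.51e-05). Itga7, at 0.203 to 0.236 against 0.279 to 0.887, was lower by -1.15 (adjusted p = 1.27e-04), and Col23a1 was the other member lower in nodose.

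Higher in nodose neurons were Col6a5, a type VI chain, at 0.0905 to 0.154 against 0 to 0.0317 (edgeR log2 difference 4.22, adjusted p = 5.77e-07), and Col27a1, a fibrillar collagen, at 0.102 to 0.182 against 0 to 0.0251 (3.27, adjusted p = 3.61e-07). Itga9, the tenascin receptor chain, was at 0.0673 to 0.116 against 0 to 0.0303 (3.26, adjusted p = 7.15e-06), and Col24a1 at 0.0476 to 0.123 against 0.0173 to 0.0472 (1.62, adjusted p = 2.07e-04). The groups did not overlap for any of these 4, but for Col24a1 only barely (0.0476 against 0.0472). These 4 were taken from members that edgeR had called, and the share of all genes without overlap was not counted. Without 6 cells described next, 15 members were called by edgeR. Col3a1 then moved from 3.89 to 1.46 (adjusted p = 0.0977) and Col1a1 from 1.92 to -0.52 (adjusted p = 0.624). Itgb4 moved from 1.64 to 1.45 (adjusted p = 0.0627), and Col4a2 from 1.01 to 0.99, just under the fold required.

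In nodose clusters, 6 cells had under 10 UMIs per 10000 of the 6 neuronal markers (highest 6.09, next neuron 25.6). Of these, 5 were in NG15 and 1 in NG12. An NG15 cell of unsorted 1 held 459 Col3a1, 144 Col1a1 and 112 Col1a2 UMIs, and 151 of the fibroblast gene Dcn, among 13179. Another NG15 cell of unsorted 1 held 280 Dcn, 20 Col1a1, 15 Col1a2 and 9 Col3a1 UMIs among 10512. An NG15 cell of unsorted 2 held 140 Dcn, 5 Col1a1, 9 Col1a2 and 3 Col3a1 UMIs among 6937. The remaining cells had no UMI of these collagens. With these cells the nodose level in unsorted 1 was 1.93 for Col3a1, 0.693 for Col1a1 and 0.608 for Col1a2; without them it was 0.0294, 0.00775 and 0.0789. The level of Col3a1 in NG15 was 5.01 with them and 0.0130 without. Col1a1 there was at 1.83 with and 0.00936 without them. Col1a2 was at 1.57 with and 0.142 without them, against a mean of 0.0425 over the other types, and 39 of 147 NG15 cells had a Col1a2 UMI. Without the 6 cells Col3a1 was called higher in endothelial cells than in neurons (log2 difference 1.32), which it was not with them (0.94, SE 0.34, adjusted p = 0.0310).

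Apart from those 3 collagens, the members described next peaked in a type of neuron, by a mean over libraries of at least 0.5 and at least 3 times the mean of the other types. These levels describe the deposited clusters and were not tested. Itga6 was highest in JG6 (1.30 ± 0.56, SD, n = 3 libraries) and JG1 (0.821 ± 0.146, n = 4), followed by JG3 at 0.413 and the nodose type NG4 at 0.352. Every library of JG6 and JG1 was at 0.689 or above, and 23 of 30 JG6 cells and 23 of 24 JG1 cells had a UMI. Itga7 was highest in JG5 (1.26 ± 0.64, n = 3), NG3 (1.06 ± 0.67, n = 4) and NG1 (0.962 ± 0.423, n = 4), which did not differ beyond their spread. Lamb1 was highest in JG4, at 0.496, 0.846 and 0.700 in 3 libraries but 0.105 in unsorted 2, ahead of JG2 at 0.191. The JG4 mean of 0.537 fell to 0.434 when only libraries with at least 5 cells of the type were counted. Over pooled JG4 cells it was 0.273, and 26 of 66 cells had a UMI.

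Among the collagens, Col27a1 was highest in NG8 (0.867 ± 0.168, n = 4) and NG9 (0.546 ± 0.344, n = 4), with a UMI in 111 of 124 NG8 cells and a spread in NG9 that reached NG8. Col24a1 led in NG4 (1.07 ± 0.35, n = 4; 34 of 39 cells), ahead of NG1 at 0.414. Col11a1 led in NG3 at 0.434, 0.282, 0.196 and 2.75 in unsorted 1, unsorted 2, sorted 1 and sorted 2. The last value set the mean of 0.915, which was 0.239 when only libraries with at least 5 cells of the type were counted. Below the level of 0.5, Col12a1 was highest in NG5 (0.374), Itga9 in NG17 (0.336), Itga4 in NG1 (0.307) and Col6a5 in NG16 (0.306), chosen after their values were seen. Across the 24 types, 36 members stayed below 0.1 in every type.

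**Figure D4:**
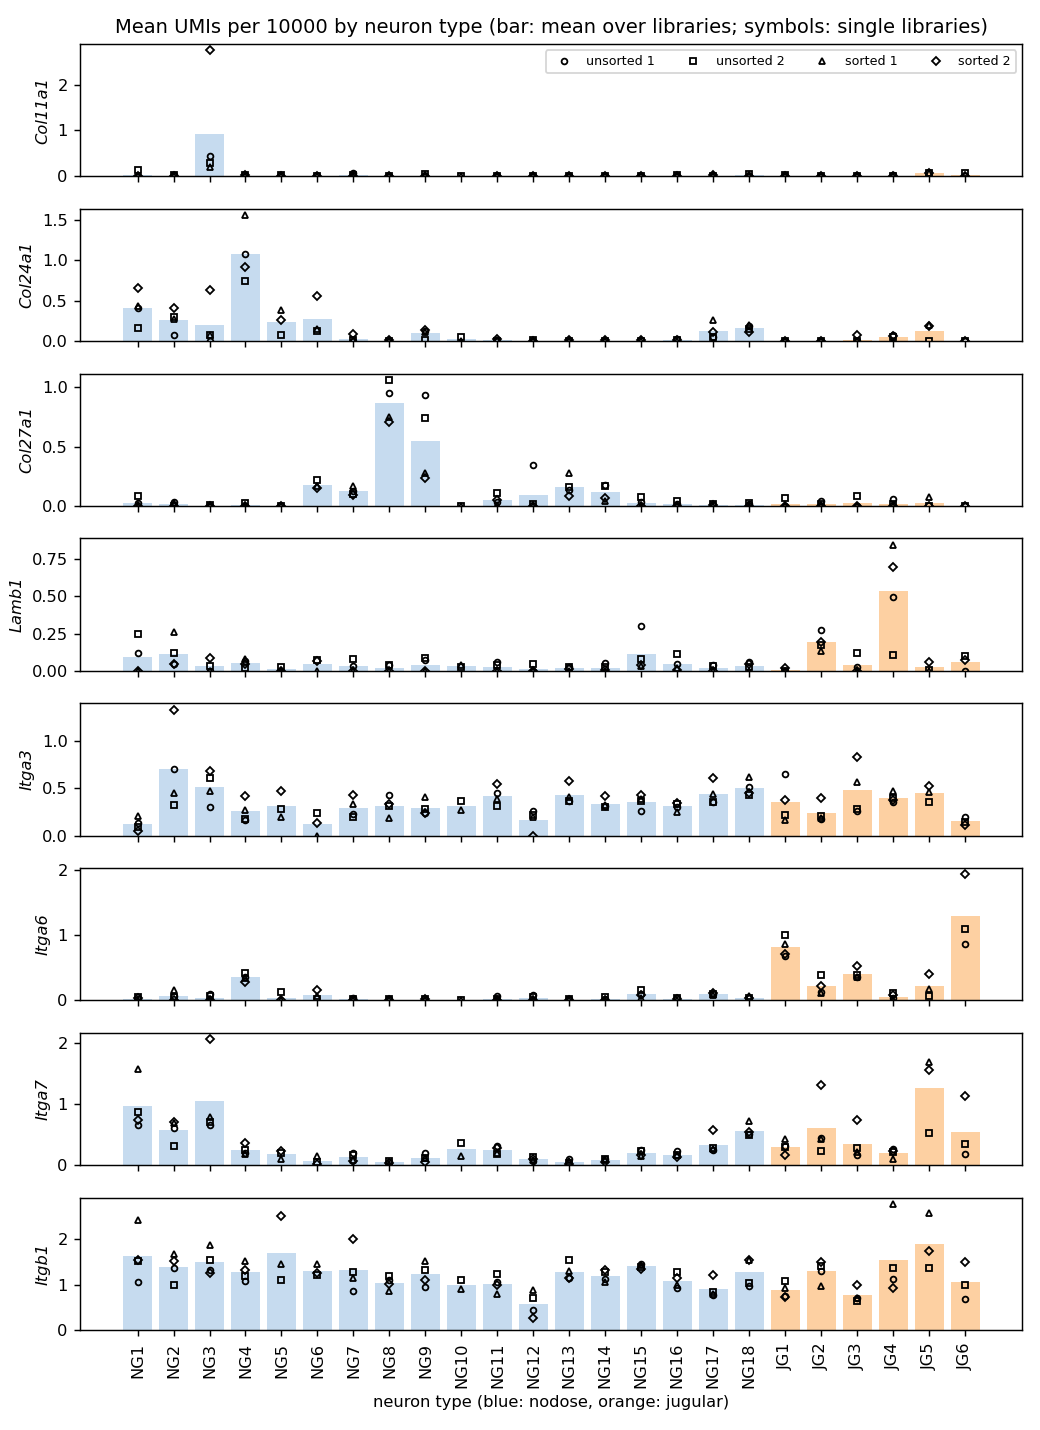
Mean UMIs per 10000 of 8 genes in the 24 neuron types, with types on the horizontal axis; bars are means over libraries with at least 3 cells of the type, blue for nodose and orange for jugular, and symbols are single libraries. Itga6 is tallest in JG6 (1.30) and JG1 (0.821), Col24a1 in NG4 (1.07) and Col27a1 in NG8 (0.867), whereas Itgb1 and Itga3 have a bar in every type.

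Sorted against unsorted nodose neurons gave 0 of the 11 members tested by limma, where 0.428% of all genes were called; 5 of 11 had an unadjusted p under 0.05, as had 39.9% of all genes. Col1a2 was at 0.0125 and 0.0160 in the sorted and 0.608 and 0.119 in the unsorted library pair, a difference of -0.40 (SE 0.11, adjusted p = 0.0160) under the fold required, and edgeR called it lower (-3.24, adjusted p = 5.54e-05), the only member called by edgeR, where 1.5% of all genes were called higher and 1.86% lower. Without the 6 cells the unsorted levels were 0.0789 and 0.102. Col1a2 then no longer passed the filter and had no limma result, while edgeR gave -2.58 (adjusted p = 1.08e-04). The 7 glial markers summed to 27.2 and 26.9 in the unsorted and 5.32 and 4.55 in the sorted nodose profiles, and their part in the result was not tested. Itga3 and Itgb1 differed by 0.06 (SE 0.04) and 0.07 (SE 0.07) between sorted and unsorted libraries. The difference between nodose and jugular neurons was tested for a change with sorting in 13 members, and 0 passed by limma, as did 0.0% of 9494 genes; 3 members had an unadjusted p under 0.05, as had 11.4% of all genes, Itga7 lowest (-0.37, adjusted p = 0.182).

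Genes that work with this matrix were read from 5 lists, with limma's calls. Over all genes these were 2.86% higher and 4.35% lower for glia, and 3.88% higher and 5.2% lower for endothelium, against neurons; with lists this short, a count of 1 says little about a list. Of 12 tested glycoproteins of the matrix and basement membrane, 6 were higher in glia than in neurons and 0 lower. Fbln5 and Fbln2, which bind elastic fibres and basement membrane, rose by 2.80 and 3.10 on the log2 scale, and Sparcl1, a secreted relative of the collagen-binding Sparc, by 2.94. In endothelium 3 of 12 were higher: Sparcl1 (3.13), Sparc (4.70) and the heparan sulfate core protein Hspg2 (1.47). Serpinh1, the collagen chaperone, was the only one called of 14 folding and crosslinking genes, higher in glia (2.06) and in endothelium (2.41). Of 8 proteases and inhibitors tested, 4 were higher in glia, among them the inhibitor Timp3 (3.32) and the proteases Adamts5 (1.95) and Adamts1 (1.52), and in endothelium 2 were higher (Timp3, 3.5, and Adamts1, 2.50) and Timp2 lower (-1.98).

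In a list of 12 other matrix receptors and associated membrane proteins, 3 were higher and 2 lower in glia than in neurons. Dag1, which gives dystroglycan, rose by 1.82, Sdc4 by 1.95 and Sdc3 by 1.27, while the laminin receptor Bcam fell by 1.46 and Cd47 by 1.10. In endothelium 0 were higher and 1 lower, Cd44 (-1.23), the hyaluronan receptor. Cd44 was also lower in nodose than in jugular neurons (-1.88). Of 17 genes of the integrin adhesion machinery, glia were higher in 1 (Fermt2, 1.03) and endothelium in 3 (Cav1, 2.92; Actn4, 1.68; Fermt2, 1.06) with Tln2 lower (-1.35). Parva, which joins integrins to actin, was higher in nodose than in jugular neurons (1.29).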

How the data were processed

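Single-cell RNA of 4 droplet libraries was deposited as natural log values, ln(1 + UMIs per 10000 UMIs of the cell), by the authors, with an annotation of cluster, library and the counts of genes and UMIs per cell. Per the labels' protocols, ganglia were digested with papain and collagenase/dispase and the kit read transcript 3' ends. Cell Ranger 2.1.1, Seurat and mm10 are named per the submitters' processing notes; the sources used here do not give the filters, doublet removal or strand use in counting. The series states 1896 cells, 71 more than were analysed. The deposited fraction of mitochondrial UMIs was not used. All cells entered, without a doublet caller. Undoing the log gave 100.0% of values as whole UMIs within 0.01.

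Levels were averaged per library and class, and log2(level + 1) was fitted with limma 3.58.1 (trend; library as a block, since classes of a library share its preparation), adjusting p over all genes tested. edgeR 4.0.16 with TMM was run on summed UMIs. The limma fits were tested on simulated data, with changes placed only in genes above a mean level of 1. Unchanged genes had too many small unadjusted p-values in the contrasts of glia and endothelium, with 2 profiles each. The same held in all 5 comparisons once other genes were strongly changed, so a fold was required as well. The edgeR fits were not tested in this way.

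The members and lists were chosen with earlier results of these data known. Named were members called, members reaching a level of 1 in a class, neuron-type peaks by the stated rule, and up to 3 called genes of each other list by adjusted p; 1 member is counted but not reported here. Named after their values were seen were Itga3, Lama4, Lamc1, Lama5, Itga5, Col13a1, Col6a1, Col1a1, the members called by edgeR alone, Bcam, Cd47 and Fermt2. Alternatives were a pseudocount of 0.1, no filter, median centring, limma-voom, edgeR, other cell sets, no block and leaving out libraries. Gene starts came from GENCODE, promoters from RefSeq; 56 members had a promoter entry. Coordinates are mm10.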

Additional observations from a re-analysis of the deposited data

How the results depend on the processing

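All 21 calls of members kept their direction and their call under a pseudocount of 0.1, no filter, median centring, limma-voom, edgeR, the unsorted libraries alone, and without the 5% of cells with most UMIs, the 391 neurons above 5 UMIs per 10000 of Apoe, the 6 cells low in neuronal markers or either sorted library. Without unsorted 1 and without unsorted 2, 19 of 21 were kept in each case. Without the replicate block, the counts of members called were 9 for glia against neurons, 6 for endothelium against neurons, 7 for glia against endothelium and 0 for nodose against jugular neurons, and no call was lost. No paired analysis was possible for sorted against unsorted neurons because the replicate numbers were given in accession order and the library titles share none.

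Counts moved with the scale. With a pseudocount of 0.1, members called (and all genes) were 30 (3962) for glia against neurons, 19 (4553) for endothelium against neurons, 33 (3000) for glia against endothelium, 2 (770) for nodose against jugular and 1 (183) for sorted against unsorted. With limma-voom, added after seeing the data, they were 38 (5356), 29 (6052), 29 (3911), 18 (1886) and 1 (313), and with edgeR 35 (4279), 26 (5375), 28 (2415), 19 (1824) and 1 (298). edgeR without the 6 cells, also added later, gave 15 (1813) for nodose against jugular and 1 (290) for sorted against unsorted. Median centring moved the glial difference of the median gene by 0.37 and the endothelial one by 0.42, and gave 19 and 8 members. Leaving out 1 library gave 8 to 9, 4 to 6, 7 to 8, 0 and 0 members, and 15 to 52 genes for sorted against unsorted, the lowest without sorted 1. Thinning to 10000 UMIs gave a share of 100% of the endothelial cells deep enough for Col4a2, 67.7% of nodose neurons for Itgb1 and 27.5% for Itga3. Depth limits the glia and endothelium most: 3 UMIs over each class are a level of 0.0575 and 0.0597, and 2 profiles each carry those comparisons.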

Other observations

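The 19 sympathetic neurons (11 in unsorted 1 and 8 in unsorted 2) entered no comparison. Their Itgb1 level was 2.58, their Itga6 level 0.635, their Col5a3 level 0.417 and their Itga3 level 0.367 UMIs per 10000, and Col6a5, Itga9 and Col24a1, which had UMIs in nodose neurons, had none; 3 UMIs in these cells would be a level of 0.0292.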
